A study of Mus musculus with 30 samples.

Results

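The unfolded protein response genes described here are 10 genes of the 23993 in the deposited table: Ern1, Atf6, Xbp1, Hspa5, Hsp90b1, Dnajb9, Sdf2l1, Calr, Pdia4 and Herpud1. They were chosen by symbol, each symbol was found in 1 row, and all 10 passed the filter on low values that left 14566 genes to test (a mean above 0.4 FPKM over the samples). FPKM counts sequenced fragments per length of transcript and per total mapped, so levels of different genes can be set side by side. RNA-seq was done on tdTomato-tagged cells sorted by FACS from the medial prefrontal cortex (mPFC) of C57BL/6 mice heterozygous for an Ai9 reporter, which a Cre driven from Sst or from Pvalb turned on. Sst marks the somatostatin and Pvalb the parvalbumin subtype of GABA interneuron, and a tag of this kind stays on in any cell that once expressed the Cre. The groups were nonstressed Sst females (7 libraries), nonstressed Sst males (7), Sst males exposed to chronic unpredictable stress (CUS) for 14 days (3) and nonstressed Pvalb males (7). Age was given only as 1 range of weeks for the whole study, and nothing in the labels says which libraries come from which animals, so p-values measure the spread between these samples. Another 6 labelled samples (1 nonstressed Pvalb female, 3 Sst females and 2 Pvalb females after CUS) are not analysed here.

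The endoplasmic reticulum (ER) folds secreted and membrane proteins, and when unfolded protein builds up there the sensors IRE1, ATF6 and PERK are released from the chaperone BiP and start the unfolded protein response. IRE1, encoded by Ern1, splices the Xbp1 transcript, ATF6 is cut free of the membrane, and PERK slows translation and favours ATF4. XBP1 and ATF6 then raise chaperones, disulfide isomerases and degradation factors of the ER through promoter elements of their own, and cells with a heavy secretory load depend on the pathway.

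Several facts of the libraries bear on every value below. Males SST0-M with SST1-M, and PV0-M with PV2-M, differed far less than other pairs of their groups, and each pair was averaged and counted once, which left 22 samples. The averaged pair SST0-M/SST1-M stood apart, with an upper quartile of 24.3 to 24.4 FPKM against 15.2 to 18.2 in all others. Nonstressed Sst males fall into 3 samples with short titles (the averaged pair, SST3-M and SST4-M) and 3 with long ones (SS04031R, SST040241L and SST04241LL), and every CUS library has a long title. In long-titled libraries small nucleolar RNA took 53.5% to 75.7% of total FPKM, and in short-titled ones of all groups 1.87% to 8.29%. The male-labelled libraries PV1-M, PV4-M and PV5-M held Xist at 300.2 to 333 FPKM, against 0 to 6.64 FPKM in the other male-labelled ones, and they are called the libraries labelled male. Ddx3y, a gene of the Y chromosome, was at 1.87 to 2.15 FPKM in PV1-M, PV4-M and PV5-M. It was at 7.97 to 17.1 FPKM in the other Pvalb libraries and at 0 to 0.0274 FPKM in Sst females. The labelled cell type was not borne out by its markers: the 10 interneuron markers averaged 0.33 to 1.96 on the log2(FPKM + 1) scale and the 12 microglia markers 7.32 to 9.19. Sst itself was higher in the Pvalb libraries (12.5 to 30.5 FPKM) than in short-titled Sst males (0.238 to 6.02 FPKM). Sst females, at 4.18 to 49.3 FPKM of Sst, overlapped both. Pvalb went with the label, at 0.890 to 5.07 FPKM in the Pvalb libraries. It was at 0 to 1.93 FPKM in Sst females and 0 to 0.544 FPKM in short-titled Sst males. In sorted samples of this kind, fewer cells of a type and less RNA per cell cannot be told apart.

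The ER stress response element is the promoter sequence to which ATF6 binds together with NF-Y, and it is shown for the members that carry it because it is the element through which ATF6 is known to raise ER chaperones. Promoters of RefSeq (GRCm38.p6, 250 bases before to 50 after the start site) were found for 9 of the 10 members. An exact match to ERSE (CCAAT, 9 bases of any kind, then CCACG, on either strand) lay in 39 of 32851 promoters, which is 0.119%, and in those of 3 members, Hspa5, Hsp90b1 and Calr. An exact match to the shorter ERSE-II (ATTGG, 1 base of any kind, then CCACG, on either strand) lay in 12 of them, 0.037%, and in that of 1 member, Herpud1. The matches are printed 5′ to 3′ on the strand of the gene with 10 bases on each side, and all lie upstream of the annotated gene, with the match in capitals.
Hspa5, chr2:34772015-34772053, plus strand, from -65 to -47 of the start site: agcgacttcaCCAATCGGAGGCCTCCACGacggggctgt
Hsp90b1, chr10:86705628-86705666, minus strand, from -212 to -194: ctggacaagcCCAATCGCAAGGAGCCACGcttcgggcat
Hsp90b1, chr10:86705523-86705561, minus strand, from -107 to -89, matched as the reverse complement: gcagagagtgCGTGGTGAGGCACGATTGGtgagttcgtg
Calr, chr8:84847065-84847103, minus strand, from -162 to -144, matched as the reverse complement: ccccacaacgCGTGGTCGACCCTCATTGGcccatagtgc
Herpud1, chr8:94386367-94386397, plus strand, from -52 to -42, ERSE-II: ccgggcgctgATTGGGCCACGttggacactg
The motifs share the half-site CCACG, while the other half-site is inverted in ERSE-II and the spacer is shorter, and no printed match overlaps another. Among the 60 other pathway genes 44 had a promoter entry, of which 6 held ERSE (Canx, Creld2, Derl3, Dnajc3, Pdia6 and Syvn1) and 1 held ERSE-II (Dnajb11). A match describes letters only, and these data do not bear on which factor was bound.

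**Figure D1:**
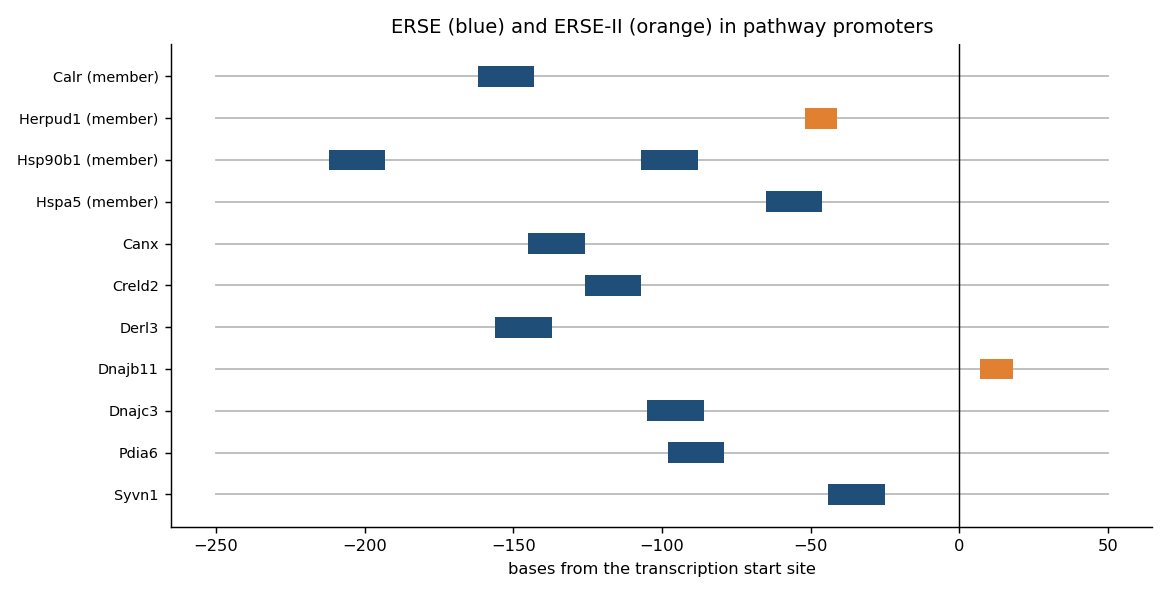
Position of exact ERSE (blue) and ERSE-II (orange) matches in the promoters of pathway genes, in bases from the transcription start site (0). Each grey line is 1 promoter from 250 bases before to 50 after the start; all matches in the 4 members lie upstream, from -212 to -42, and that of Dnajb11 lies downstream, from 7 to 17.

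Levels of the members differed widely. Hsp90b1, the ER form of HSP90, was the highest or next to highest in each group, with group means of 253 to 479 FPKM, and lay at or above the 99.0th percentile of the genes tested. Hspa5, which encodes BiP, had group means of 137 to 313 FPKM, and Calr, the calcium-binding lectin chaperone calreticulin, of 89.2 to 595 FPKM. The sensors were far lower: Atf6 had group means of 8.14 to 19.4 FPKM and Ern1 of 3.66 to 11.1 FPKM. Xbp1 lay between, with means of 30.9 to 62.6 FPKM, and gene-level FPKM does not separate its spliced from its unspliced form. Within groups Sdf2l1, a partner of ER DnaJ proteins, was the most variable member in Sst females (coefficient of variation 45.4%) and in short-titled Sst males (57.3%), whereas Hsp90b1 varied by 3.97% in Sst females.

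**Figure D2:**
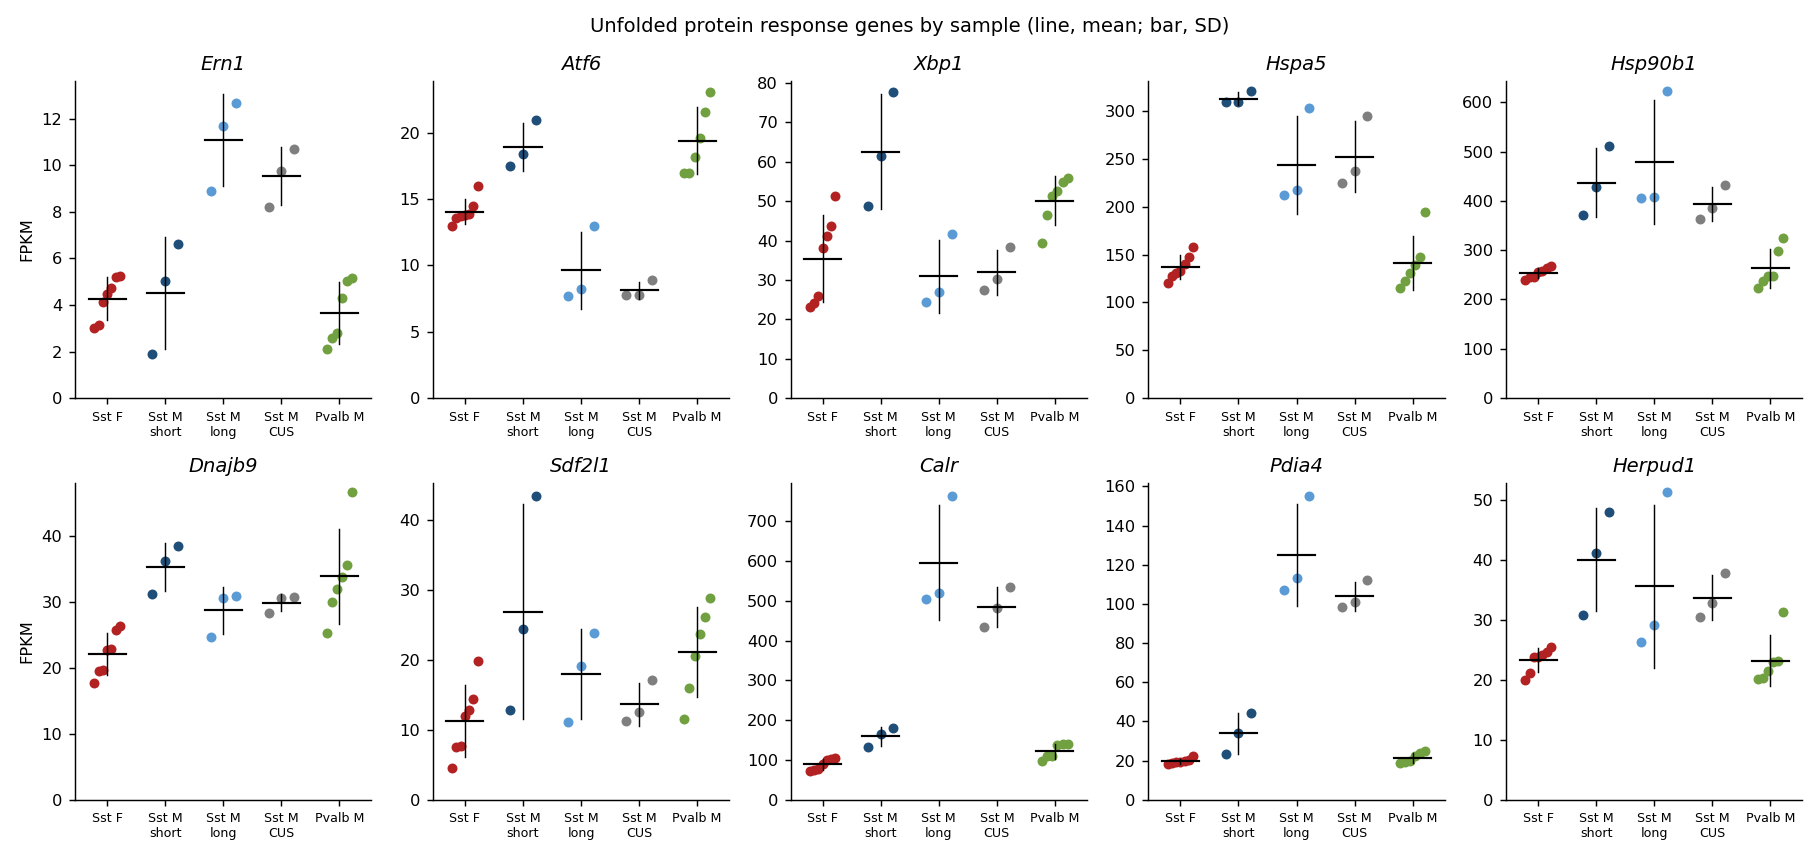
FPKM of each of the 10 genes in each of the 22 samples (points) by group, with the group mean (line) and SD (bar), on linear axes that start at 0. Hspa5 sits at 309 to 321 FPKM in short-titled Sst males and at 120 to 158 FPKM in Sst females, and Calr and Pdia4 stand higher in both long-titled groups (Sst M long and Sst M CUS) than elsewhere.

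The first comparison asked whether the response differs between the sexes in Sst mice, and set the 7 females against the 3 short-titled males, since no female sample analysed here has a long title. Most members were lower in females than in these males: 7 of the 10 passed the test in that direction (Hspa5, Xbp1, Hsp90b1, Calr, Pdia4, Dnajb9 and Herpud1) and none in the other, against 4.65% of all genes tested that were called lower and 3.41% called higher. The median log2 difference of the 10 was -0.75, beside 0.05 over all 14566 genes. Differences throughout are on the log2(FPKM + 1) scale, which understates those of low genes, and adjusted p-values are from limma (Benjamini-Hochberg, over all 14566 genes). The groups did not overlap for 7 members (Hspa5, Atf6, Hsp90b1, Calr, Pdia4, Dnajb9 and Herpud1), with females below the short-titled males, against 4.43% of all genes. The long-titled males differed from this: their Atf6 (7.71 to 13.0 FPKM) lay at or below the female range of 13.0 to 16.0, and 1 of them had Dnajb9 at 24.7 FPKM, inside the female range of 17.8 to 26.4. With all male controls as 1 group 7 members passed as lower in females, beside 19.7% of all genes called, but Xbp1 did not (-0.34, adjusted p = 0.334) and Sdf2l1 did (-0.92, adjusted p = 0.0358). Calr was then at -1.77 (adjusted p = 0.000932) and Pdia4 at -1.65 (adjusted p = 0.00139). Both genes stood higher in long-titled than in short-titled males, as described below. Sex and the kind of title cannot be told apart in this setting.

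Hspa5 encodes BiP, the chaperone that holds the sensors inactive and folds new chains. Its level was 309 FPKM in the averaged pair of males, 309 in SST3-M, 321 in SST4-M, and in the 7 females from 120 through a median of 133 to 158 FPKM. The highest female was thus well below the lowest male. The log2 difference was -1.20 ± 0.16 (SE; adjusted p = 0.000241), a mean level 2.29 times higher in males. This call held in each run that left out 1 sample.

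Among the other chaperones, Hsp90b1, which folds integrins and Toll-like receptors, was at 428, 511 and 372 FPKM in the males (in the order of the averaged pair, SST3-M, SST4-M, kept below) and at 240 to 267 FPKM, median 255, in females. Its log2 difference was -0.77 ± 0.16 (adjusted p = 0.00807), and it too was called whichever sample was left out. Dnajb9, a DnaJ co-chaperone that recruits BiP to IRE1, was at 36.2, 38.5 and 31.3 FPKM in males and 17.8 to 26.4, median 22.7, in females. It differed by -0.66 ± 0.16 (adjusted p = 0.0209). Sdf2l1 was at 43.4, 24.4 and 12.9 FPKM in males and 4.55 to 19.8, median 12, in females. SST4-M lay inside the female range here, and the difference of -1.15 ± 0.37 did not pass (adjusted p = 0.0558).

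Calreticulin and the disulfide isomerase encoded by Pdia4 work on glycoproteins and on disulfide bonds. Calr was at 180, 164 and 133 FPKM in males and 72.5 to 105, median 90.4, in females, a log2 difference of -0.83 ± 0.18 (adjusted p = 0.0104). Pdia4 was at 44.4, 34.0 and 23.3 FPKM in males and 18.1 to 22.2, median 19.4, in females, a difference of -0.71 ± 0.16 (adjusted p = 0.0156). The female values of Pdia4 lay close together, whereas the males spread widely and SST4-M came within reach of the females. Herpud1, a membrane protein of the ER degradation complex, was at 48.0, 41.2 and 30.9 FPKM in males and 20.0 to 25.5, median 23.9, in females. Its groups did not overlap, and it differed by -0.74 ± 0.18 (adjusted p = 0.0216).

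Of the sensors and transcription factors only Xbp1 passed. Xbp1, the transcription factor downstream of IRE1, was at 77.7, 61.4 and 48.7 FPKM in males and 23.2 to 51.3, median 38.1, in females. The female SST-F lay above the male SST4-M, and the log2 difference was -0.84 ± 0.23 (adjusted p = 0.0328). Atf6 was at 21.0, 18.4 and 17.5 FPKM in males and 13.0 to 16.0, median 13.8, in females, without overlap, yet the difference of -0.40 ± 0.15 did not pass (adjusted p = 0.0939). Ern1, the kinase and nuclease IRE1, was at 1.91, 5.05 and 6.61 FPKM in males and 3.03 to 5.26, median 4.46, in females. The averaged pair was lowest of all samples for Ern1 although it was highest of the short-titled males for Xbp1, and the difference over groups was 0.02 (95% interval -0.54 to 0.59; adjusted p = 0.973).

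**Figure D3:**
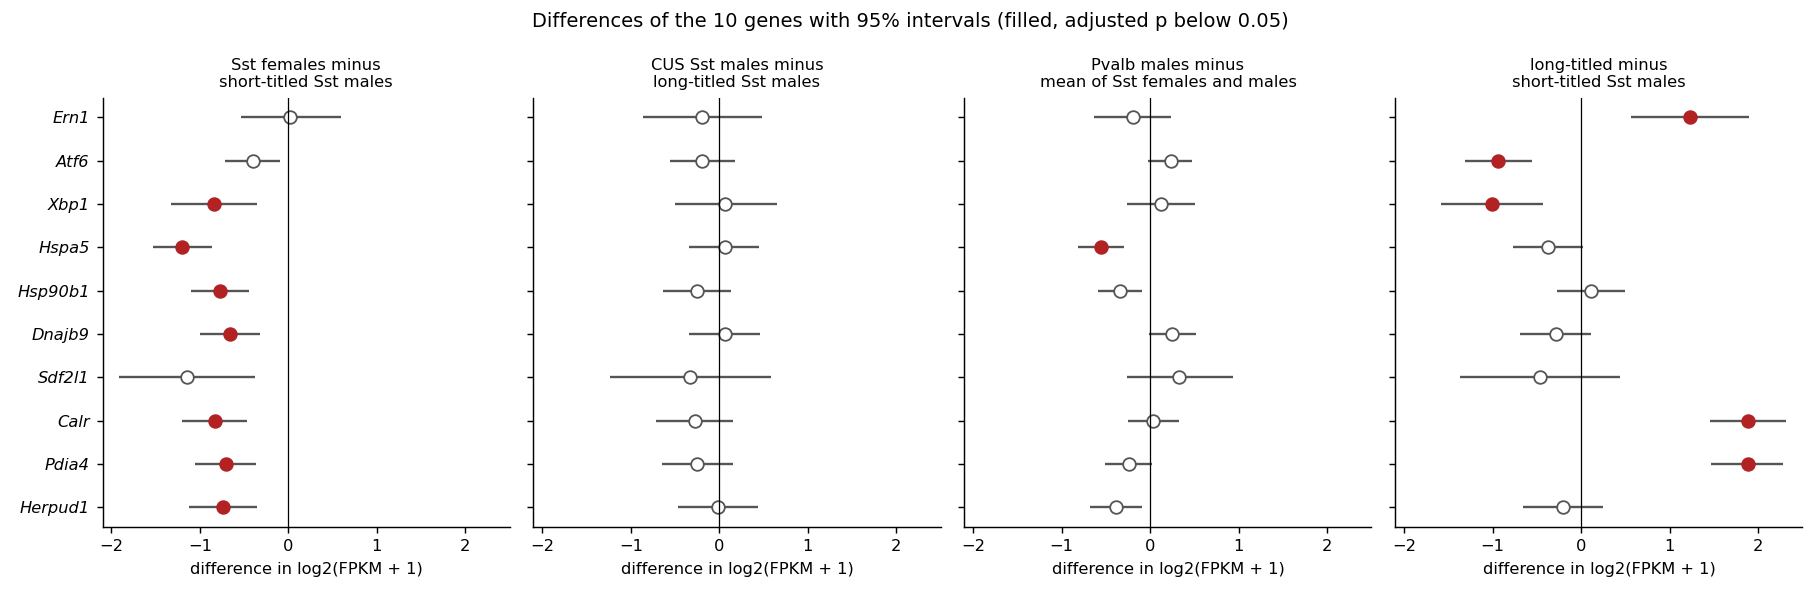
Difference in log2(FPKM + 1) of each gene in the 4 comparisons, with the 95% interval as a bar; filled points passed an adjusted p of 0.05. In the sex panel 9 of 10 points lie below 0 and 7 are filled, in the CUS panel none is filled, in the cell type panel only Hspa5 is filled, and in the title panel Calr, Pdia4 and Ern1 lie to the right and Xbp1 and Atf6 to the left.

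The averaged pair of males decided how many members were called. Without it 2 members passed (Hspa5 at -1.21, adjusted p = 0.00149, and Hsp90b1 at -0.78, adjusted p = 0.0324), and the others that had passed lay between -0.50 for Pdia4 and -0.74 for Calr, all still lower in females; calls over all genes fell from 1175 to 209, or 1.43%. Without SST3-M 4 passed (Hspa5, Hsp90b1, Calr and Pdia4), beside 7.91% of all genes, and without SST4-M 8, beside 17.0%. With small nucleolar RNA left out and a common total, the median over all genes rose to 0.24. The split of calls went from 497 higher and 678 lower to 950 higher and 318 lower. In that setting 4 members passed, beside 8.72% of all genes. The median of the 10 was then -0.74 relative to that of all genes, against -0.80 in the reported fit. Under quantile normalization this relative median shrank to -0.48, and 2 members passed (Hspa5 and Pdia4), beside 5.27% of all genes. Markers of another cell type moved with this comparison: 8 of 12 microglia markers passed as lower in females, among them Csf1r at -1.05 (adjusted p = 0.00666) and Cx3cr1 at -1.16 (adjusted p = 0.00884), and their summed level was 3659 to 6802 FPKM in females and 5817 to 9415 in males. With the mean level of these markers as a covariate in the fit 8 members were called lower, beside 12.9% of all genes called in either direction. Of the endothelial markers Cdh5 passed as higher in females, at 1.59 (adjusted p = 0.0397), as did the interneuron marker Sst, at 2.26 (adjusted p = 0.0287). No marker passed among the astrocyte, oligodendrocyte, pan-neuronal and excitatory lists. The part of these markers in the differences of the members was otherwise not tested.

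The second comparison asked whether CUS changed the response in Sst males, with the long-titled nonstressed males as controls. No member passed, beside 0.0206% of all genes called (3 of 14566; 638 had an unadjusted p below 0.05, none of them a member). Hspa5 was at 225, 237 and 295 FPKM in SS04031LL, SS04031RL and SS04031RR after CUS and at 303, 212 and 217 FPKM in the controls SS04031R, SST040241L and SST04241LL. The control SS04031R lay above all 3 CUS samples, and the other controls below them. The log2 difference was 0.06 (95% interval -0.34 to 0.45).

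SS04031R was also the highest of these 6 samples for Calr, Pdia4, Hsp90b1, Herpud1, Atf6, Ern1, Xbp1 and Sdf2l1. Calr was at 435, 482 and 535 FPKM after CUS and 762, 520 and 504 FPKM in controls, a difference of -0.28 (95% interval -0.71 to 0.16). Pdia4 was at 98.3, 101 and 112 FPKM after CUS and 155, 107 and 113 FPKM in controls, a difference of -0.25 (95% interval -0.65 to 0.16). Herpud1 was at 32.8, 30.5 and 37.9 FPKM after CUS and 51.3, 29.2 and 26.3 FPKM in controls, so that the controls enclosed the stressed samples. Over the 10 members the differences ran from -0.33 for Sdf2l1 to 0.07 for Xbp1 and every group pair overlapped. The widest interval was that of Sdf2l1, from -1.24 to 0.58, while that of Atf6 ran from -0.56 to 0.18, so the size of change that could be seen with 3 samples a group differed between members. Without SS04031R the differences were -0.11 to 0.30. The unadjusted p-values of the members were 0.185 or above. None of the markers of any cell type list passed, with the summed microglia markers at 3852 to 4639 FPKM after CUS and 4872 to 10884 FPKM in controls.

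When the CUS libraries were set against short-titled males in place of long-titled ones, 5 members passed, beside 28.0% of all genes: Calr at 1.60 (adjusted p = 9.40e-06), Pdia4 at 1.63 (adjusted p = 3.28e-06) and Ern1 at 1.04 (adjusted p = 0.0205) were higher, and Xbp1 at -0.94 (adjusted p = 0.0149) and Atf6 were lower. The same 5 genes, in the same directions, passed between long-titled and short-titled nonstressed males, described below, and both comparisons use the short-titled males. CUS and the kind of title cannot be told apart in that setting.

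The third comparison set Pvalb males against the mean of Sst females and short-titled Sst males. Only Hspa5 passed, lower in Pvalb males, against 6.48% of all genes called lower and 7.27% called higher. It ran from 115 through a median of 135 to 194 FPKM in the 6 Pvalb samples, which lie with the Sst females (120 to 158 FPKM) and below the Sst males (309 to 321 FPKM). The log2 difference was -0.56 ± 0.12 (adjusted p = 0.00650). Against Sst males alone it was -1.16 (adjusted p = 0.000478) and against Sst females alone 0.04 (adjusted p = 0.878). The order of Hspa5 levels was therefore Sst females and Pvalb males together, then long-titled and CUS males, whose ranges overlap each other, and short-titled males at the top, although the step from long-titled to short-titled males did not pass. The sex and cell type comparisons share the Sst females and short-titled males.

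The result for the other members turned on which Sst mice were taken. Against Sst males alone Hsp90b1 (-0.73, adjusted p = 0.0147), Herpud1 (-0.75, adjusted p = 0.0245) and Pdia4 (-0.60, adjusted p = 0.0416) passed as lower in Pvalb males, beside 5.83% of all genes called in either direction. Against Sst females alone, where 21.7% of all genes were called, 5 members passed as higher: Sdf2l1 (0.91, adjusted p = 0.0335), Dnajb9 (0.58, adjusted p = 0.00414), Xbp1 (0.54, adjusted p = 0.0444), Calr (0.45, adjusted p = 0.0282) and Atf6 (0.43, adjusted p = 0.0167). Dnajb9 ran from 25.3 to 46.7 FPKM in Pvalb males, median 32.9, and Xbp1 from 39.4 to 55.9, median 52.0.

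The 3 libraries labelled male with high Xist counted for much of this comparison. Without PV1-M, PV4-M and PV5-M Hspa5 was at -0.38 (adjusted p = 0.216) and no member passed; 231 of all genes (1.59%) were then called, against 2003 with them. In those 3 libraries Hspa5 was at 131, 115 and 122 FPKM and Calr at 138, 140 and 139 FPKM, while in PV0-M/PV2-M, PV3-M and PV6-M Hspa5 was at 194, 147 and 139 FPKM and Calr at 110, 96.5 and 109 FPKM. Thus each of the 3 with high Xist lay below the others for Hspa5 and above them for Calr. They also lay below the others for Atf6 and above them for Xbp1 and Pdia4. Hsp90b1, at 247, 248 and 224 FPKM in the former and 238, 325 and 299 FPKM in the latter, showed no such separation. Ern1, Dnajb9, Sdf2l1 and Herpud1 did not separate either. The share of all genes that separate in this way was not computed, so no result about the members is read from it. Markers moved here as well: 5 of 6 endothelial markers passed as lower in Pvalb males (summed level 10.5 to 82.7 FPKM, against 73.3 to 148 in Sst females and 24.9 to 136 in short-titled males), 4 of 5 excitatory neuron markers passed as higher, and 3 of 12 microglia markers passed as higher (7966 to 9071 FPKM summed). With the microglia markers as a covariate Hspa5 was at -0.68 (adjusted p = 0.0627) and Hsp90b1 at -0.71 (adjusted p = 0.0199). The part of the other markers in these differences was not tested.

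The fourth comparison was between the long-titled and short-titled nonstressed Sst males, which carry the same labels for sex, subtype and stress. The members split here: Calr, Pdia4 and Ern1 were higher in long-titled males, against 11.4% of all genes called higher, and Xbp1 and Atf6 were lower, against 12.9% called lower. A share of 5 in 10 stands beside 24.3% of all genes called in either direction. For Calr the long-titled males were at 762, 520 and 504 FPKM and the short-titled at 180, 164 and 133 FPKM. No sample came near the other group, and the log2 difference was 1.88 ± 0.21 (adjusted p = 1.37e-06). Pdia4, at 155, 107 and 113 FPKM against 44.4, 34.0 and 23.3, likewise differed by 1.88 ± 0.19 (adjusted p = 5.63e-07).

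The sensors went opposite ways. Ern1 was at 12.7, 11.7 and 8.89 FPKM in long-titled males, above all short-titled values, a log2 difference of 1.23 ± 0.32 (adjusted p = 0.00807). Atf6 was at 13.0, 7.71 and 8.25 FPKM, below all short-titled values, a difference of -0.94 ± 0.18 (adjusted p = 0.000646). Xbp1, at 41.6, 26.8 and 24.5 FPKM, was also below all of them and differed by -1.01 ± 0.28 (adjusted p = 0.0107). Groups without overlap, high or low, were found for 3 and 4 members, against 16.1% and 16.7% of all genes. Without the averaged pair Ern1 (0.82, adjusted p = 0.0536) and Xbp1 (-0.84, adjusted p = 0.0508) no longer passed, whereas Calr, Pdia4 and Atf6 did.

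The members with an ERSE had unlike values in this comparison. Hspa5 differed by -0.38 (adjusted p = 0.157) and Hsp90b1 by 0.11 (adjusted p = 0.709), while Calr, with a match in its promoter as well, stood 3.74 times as high in long-titled males by the ratio of mean FPKM. The ratio of Calr to Hspa5 within a sample was 0.415 to 0.583 in short-titled males, 0.494 to 0.873 in Sst females and 0.567 to 1.21 in Pvalb males, against 2.32 to 2.51 in long-titled males and 1.81 to 2.03 after CUS. The ratio of Pdia4 to Hspa5 was 0.504 to 0.519 in long-titled males and 0.379 to 0.438 after CUS, and at most 0.203 in any short-titled sample. A ratio within a sample does not depend on the total, which small nucleolar RNA dominated in long-titled libraries. That share, 53.5% or more against 8.29% or less, runs with the kind of title, so the 2 cannot be told apart. C1qb, C1qc and P2ry12 among the microglia markers passed as lower and 2 others as higher in long-titled males, and the pan-neuronal markers Snap25 (-2.17, adjusted p = 0.0155) and Stmn2 (-1.68, adjusted p = 0.0389) were lower. The oligodendrocyte markers Mag (1.71, adjusted p = 0.00270) and Mbp (-1.17, adjusted p = 0.00933) went opposite ways and the astrocyte marker Gfap was higher (1.13, adjusted p = 0.0324). The part of these markers in the differences was not tested.

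**Figure D4:**
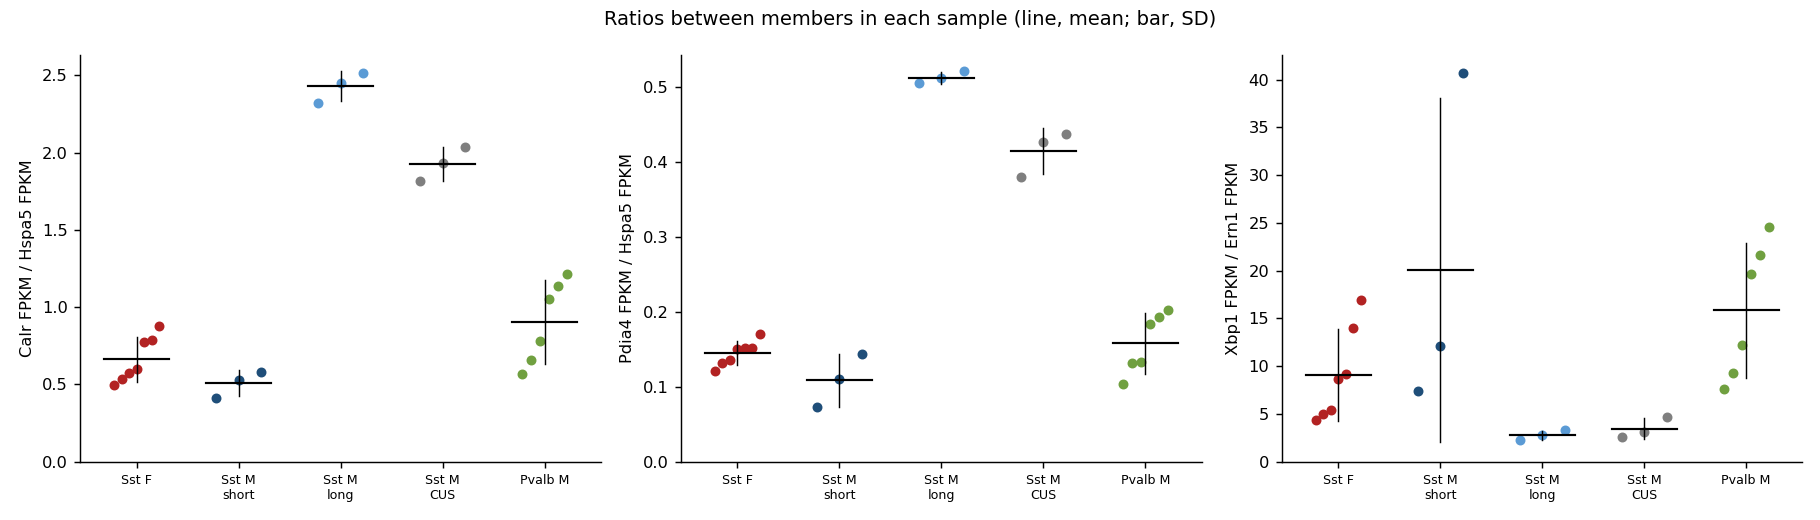
Ratio of FPKM values between members in each sample (points), with group mean (line) and SD (bar): Calr to Hspa5, Pdia4 to Hspa5 and Xbp1 to Ern1, on linear axes from 0. The 6 long-titled samples (Sst M long and Sst M CUS) have Calr to Hspa5 ratios of 1.81 to 2.51 and all other samples lie at 1.21 or below. The Xbp1 to Ern1 ratios of the long-titled samples are 2.28 to 4.66 and overlap those of Sst females, which start at 4.42.

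The other genes of the pathway, 60 in 6 lists of which 57 were tested, gave context for the members. In the sex comparison the median log2 difference of the 57 was -0.24, beside 0.05 over all genes tested. Of the 57, 8 passed as lower in females and none as higher, against 4.65% and 3.41% of all genes. They were the chaperone Hyou1 (-0.70 ± 0.17, adjusted p = 0.0198) and Manf (-0.98), the isomerases Pdia6 (-1.52 ± 0.24, adjusted p = 0.00151) and Pdia3 (-0.80), Sec62 (-0.62) and Spcs2 (-0.72) of translocation and signal peptide cleavage, and Atf4 (-1.41 ± 0.25, adjusted p = 0.00392) and Ddit3 (-1.20) of the PERK arm. By list this is 2 of 9 chaperones and co-chaperones, 2 of 8 isomerases and oxidases, 2 of 12 translocation genes and 2 of 3 PERK arm effectors, with none of 18 degradation genes and none of 7 sensors and transcription factors. Pdia6 and Atf4 were called in every run that left out 1 sample, at -1.81 to -1.06 and -1.64 to -0.99. Of those 10 runs Hyou1, Pdia3 and Ddit3 were called in 9, Sec62 in 7, Manf in 5 (-1.33 to -0.53) and Spcs2 in 2.

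With CUS none of the 57 passed (41 had a negative difference, median -0.13). In the cell type comparison the counts lay near the shares over all genes (7.27% higher and 6.48% lower): 2 of 57 passed as higher in Pvalb males, the ER membrane transcription factor Creb3l2 (0.93 ± 0.29, adjusted p = 0.0372) and the isomerase Pdia5 (0.99 ± 0.22, adjusted p = 0.00650). Another 4 were lower: Dnajc3, a BiP co-chaperone and inhibitor of PERK (-0.69 ± 0.12, adjusted p = 0.00147), Sdf2 (-0.89), Ufd1l (-0.71) and Nploc4 (-0.60), the last 2 being cofactors of the p97 segregase in degradation. Nploc4 was called in 4 and Creb3l2 in 9 of the 16 runs that left out 1 sample.

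Between the kinds of title 11 of 57 passed as higher in long-titled males and 11 as lower, beside 11.4% and 12.9% of all genes. The sensor PERK, encoded by Eif2ak3, was at 17.1 to 27.8 FPKM in long-titled and 1.07 to 5.19 FPKM in short-titled males, a log2 difference of 2.35 ± 0.35 (adjusted p = 5.62e-05). The protease of ATF6 encoded by Mbtps1 (1.44), the lectin chaperone Canx (1.02), the BiP exchange factor Sil1 (1.28), the isomerase P4hb (1.06) and the degradation lectins Os9 (1.81) and Edem2 (1.00) were higher, as was Ppp1r15a (0.84), the phosphatase subunit that restores translation. The oxidases Ero1l (-1.34) and Ero1lb (-1.13), the ligase Syvn1 (-1.70), the chaperone partner Sdf2 (-1.18) and the translocon and signal peptidase genes Sec61g (-2.21), Ssr2 (-0.96) and Spcs1 (-0.89) were lower. Of the 6 other pathway genes with an ERSE match Canx was thus higher, Syvn1 and Dnajc3 (-0.79, adjusted p = 0.00378) were lower and no other passed. Edem2 was called in 3, Spcs1 in 4 and Ppp1r15a in 1 of the 6 runs that left out 1 sample.

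**Figure D5:**
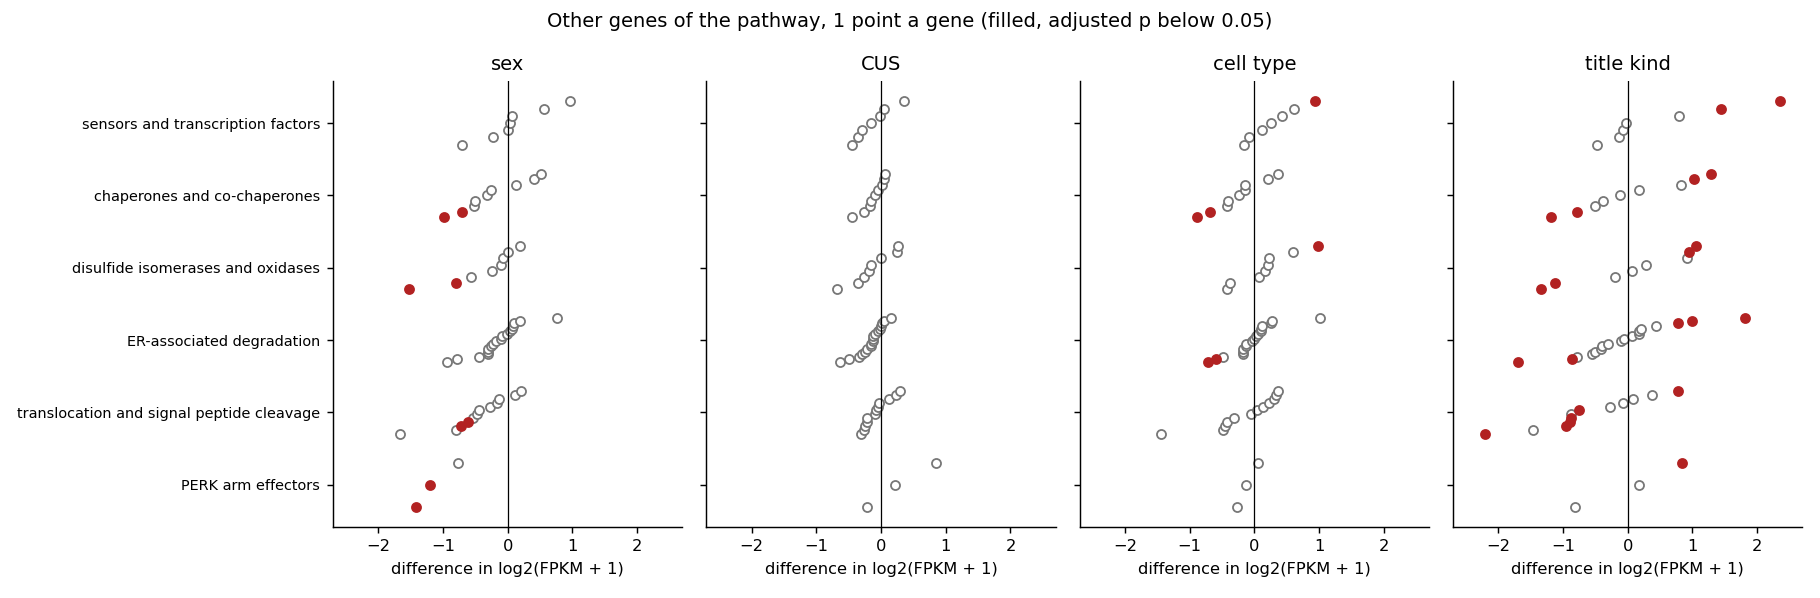
Difference in log2(FPKM + 1) of the 57 other pathway genes tested, by list (rows) and comparison (panels), 1 point a gene; filled points passed an adjusted p of 0.05. In the sex panel all 8 filled points lie below 0, in the CUS panel none is filled, and in the title panel 11 lie on each side.

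Across the 22 samples the genes most like Hspa5 by Pearson's r of log2(FPKM + 1) were Ddx5 (0.94), Snx2 (0.91), Herpud1 (0.89), Srek1ip1 (0.89) and Hsp90b1 (0.88), so 2 of the 5 are members. The samples share groups and libraries of unequal depth, and r is given as a description. After each sample was taken as its deviation from its group mean, the values were 0.80, 0.66, 0.67, 0.46 and 0.47. Calr and Pdia4 had r = 0.98 over all samples and 0.63 within groups. Xbp1 and Sdf2l1 had 0.80 and 0.85, and Xbp1 and Calr went from -0.18 over all samples to 0.83 within groups. Ern1 and Xbp1, enzyme and substrate, had r = -0.62 and -0.54.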

How the data were processed

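RNA from sorted tdTomato cells was sequenced in 24 libraries. The deposited values are FPKM, calculated by the authors per gene and sample, for 23993 gene symbols. The submitters' processing notes name TopHat2, Cufflinks, Cuffdiff and mm10, and the Methods also name mm9, HISAT2, StringTie and ComBat. No source says if these FPKM had been through ComBat. The authors tested counts with DESeq2, and no counts were used here, so no counting interval is given. Steps in the lowest values gave an approximate relative depth of 0.463 to 2.51 over the libraries, with SST2-F set to 1. Near-identical libraries (SD of log2 ratios under 10% of the next pair's, genes above 5 FPKM) were averaged.

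Values were taken as log2(FPKM + 1), genes with a mean above 0.4 FPKM over 22 samples were kept, and limma 3.58.1 in R 4.3.3 (eBayes with trend and robust) was fitted once over 5 groups, two-sided, with Benjamini-Hochberg adjustment over 14566 genes and a threshold of 0.05. It was tested on simulated data. Alternatives were the pseudocount (0.1 and 5), the filter, common median, quantile and no-snoRNA scaling, the groups fitted, no averaging, microglia markers as a covariate, each sample left out, a replicate block and other choices of controls.

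The 10 members were named in every comparison, and of the other pathway genes up to 3 called per list and comparison by size of difference, with the 5 genes most like Hspa5. The members and lists were chosen with earlier results of these data known, and the marker genes and motifs named in the text were picked from their lists with values seen. Python 3.11.15 with pandas 2.3.3 was used for other steps, and promoters are those of RefSeq, GRCm38.p6. The values of 1 marker gene are not reported here.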

Additional observations from a re-analysis of the deposited data

Results flagged for a closer look

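Of 20 sets of values (10 members in the groups of 6 and 7 samples), 1 held a sample far from the others, where chance alone flags about 5% of such sets. Herpud1 was at 31.4 FPKM in the averaged pair PV0-M/PV2-M, and its gap to the next Pvalb sample took 0.685 of the range of the group, above the critical value of 0.625 for 6 samples.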

How the results depend on the processing

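Of the 10 members, 7 differed by sex, 0 with CUS, 1 by cell type and 5 by title kind in the reported fit. The sex count was 2 under quantile normalization (Hspa5 and Pdia4) and 4 with small nucleolar RNA left out and a common total. It was 4 with only the groups compared in the fit, and 2 to 8 when 1 sample was left out. The setting with small nucleolar RNA left out was scaled to a common total in every comparison. The CUS count was 5 against short-titled males and 0 in all other settings run. The cell type count was 3 under quantile normalization, 3 with small nucleolar RNA left out, 2 with near-identical libraries not averaged, 4 against Sst males only, 5 against Sst females only, 0 without the 3 Pvalb libraries with high Xist, and 1 to 4 when 1 sample was left out; it was 4 without SST4-M, and 2 without PV0-M/PV2-M and without PV3-M. The title count was 2 with only its own groups in the fit and 3 to 6 when 1 sample was left out. Apart from the replicate block, other settings moved these counts by at most 1.5 times, and the causes were not tested. Over all genes the sex comparison called 768 under quantile normalization, 493 with only its groups in the fit, 3958 without averaging, 1878 with the microglia covariate and 2870 against all male controls, against 1175 reported. The cell type comparison called 410 of all genes with the covariate, 849 against Sst males only, 3162 against Sst females only and 231 without the libraries with high Xist, against 2003. The CUS comparison called 3 of all genes as reported, 7 with a pseudocount of 5, 12 without a filter, 1 with a mean above 1 FPKM or with only its groups in the fit, 12 against all male controls, 4079 against short-titled males and 239 against controls of both sexes. The title comparison called 585 with only its groups in the fit, against 3544. With 1 sample left out these counts were 209 (without the pair SST0-M/SST1-M) to 2479 (without SST4-M) by sex, 959 to 3687 by cell type, 2 to 6 with CUS and 2690 to 3800 by title kind.

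No pairing by the sample numbers shared between groups was seen: the deviations of same-numbered samples correlated at -0.04 to 0.07. Only PV3-M and SST3-M matched each other best. With 3 pairs in each comparison the check cannot exclude pairing. With the replicate number as a block 0 members were called by sex (11 of all genes, against 24 in the same samples without it) and 0 by cell type (10 of all genes, against 10). In the cell type fit with the block, Xbp1 was at -0.25, Calr at -0.36, Dnajb9 at -0.09 and Sdf2l1 at -0.37. For CUS and title kind no paired analysis was possible because the groups compared share fewer than 2 numbers.

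Members changed sign only where the reported difference had not passed, with 1 exception, Hspa5 by cell type. By sex, Ern1 was at -0.01 with a pseudocount of 5, -0.03 with a common median, -0.23 under quantile normalization and -0.59 against all male controls, where Atf6 was at 0.06, and Ern1 ran from -0.38 to 0.31 when 1 sample was left out (-0.38 to -0.02 where it was negative). With CUS, Herpud1 was at 0.04 under quantile normalization, 0.02 with small nucleolar RNA left out and 0.20 with the microglia covariate, where Sdf2l1 was at 0.14. Against all male controls Hspa5 was at -0.13, Xbp1 at -0.43, Ern1 at 0.42, Calr at 0.66, Pdia4 at 0.69 and Dnajb9 at -0.08. Against short-titled males these 6 were at -0.32, -0.94, 1.04, 1.60, 1.63 and -0.23. Against controls of both sexes Xbp1 was at -0.25, Ern1 at 0.74, Hsp90b1 at 0.25, Calr at 1.62, Pdia4 at 1.58 and Herpud1 at 0.22. When 1 sample was left out of CUS, Atf6 ran from -0.32 to 0.02, Dnajb9 from -0.04 to 0.12, Herpud1 from -0.20 to 0.27, Hspa5 from -0.06 to 0.22 and Xbp1 from -0.07 to 0.30. By cell type, Calr was at -0.01 under quantile normalization, -0.01 without averaging and -0.03 to 0.10 when 1 sample was left out. With the microglia covariate Xbp1 was at -0.50, Calr at -0.36 and Sdf2l1 at -0.43. Against Sst males only Xbp1 was at -0.30, Calr at -0.38, Dnajb9 at -0.08 and Sdf2l1 at -0.24, and against Sst females only Hspa5 was at 0.04, Hsp90b1 at 0.04 and Pdia4 at 0.11. Without the Pvalb libraries with high Xist Xbp1 was at -0.01 and Calr at -0.17. By title kind Hsp90b1 ran from -0.09 to 0.23 when 1 sample was left out. Without counts the precision that depth gives to low genes such as Ern1 cannot be stated.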
